A study of Homo sapiens with 18 samples.

Results

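The TGFβ-induced responses of 2 lung cancer cell lines, NCI-H358 and HCC827, were compared gene by gene to find where they parted in direction or in size. The comparison took all 19849 genes of the array table and 12 of its 18 arrays, the other arrays being of A549 cells. The 4 groups, with 3 Affymetrix U133 Plus 2.0 arrays each, were parental and mesenchymal NCI-H358 cells and parental and mesenchymal HCC827 cells. All cells grew in RPMI1640 with serum and glutamine. The mesenchymal cells had been kept in 2 ng/ml TGFβ for 3 weeks per the labels, and the methods give a range reaching beyond that for these lines. The parental cells were not treated. The treated cells were moved to medium without TGFβ on the day before lysis, so the profile is that of cells just out of the ligand. NCI-H358 and HCC827 are established lines of non-small cell lung cancer, the latter EGFR-mutant, and each is 1 genetic background with no second line of its genotype here.

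TGFβ binds a pair of receptor kinases that phosphorylate SMAD2 and SMAD3, while the related BMP ligands act through SMAD1, SMAD5 and SMAD9 and switch on the ID genes. In epithelial cells, long exposure to TGFβ drives an epithelial-mesenchymal transition (EMT): the ZEB and SNAIL repressors shut down cell-cell junction genes, and the cells turn on N-cadherin, contractile proteins, collagens and matrix proteases. Which parts of this programme a carcinoma cell carries out depends on what the cell expressed to begin with and on the other pathways active in it.

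Throughout, the response of a line is the mean log2 level of its mesenchymal arrays minus that of its parental arrays. The response difference is the response of NCI-H358 minus that of HCC827, the interaction term of the fit. A value counted as called where its limma p, adjusted over all genes by Benjamini and Hochberg, was under 0.05 and its size above 1 on the log2 scale, which is a factor of 2. The call rests on 3 arrays per group. The labels do not say whether these came from separate cultures, but the paper describes its array values as averages over 3 separate biological samples. It adds that these were made at the same time, so the p-values measure the spread between samples prepared together. In a bulk RNA sample, fewer cells of a kind and less RNA per cell cannot be told apart.

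The arrays of a group lay close together. The SD across genes of the difference between 2 arrays of a group ran from 0.163 to 0.282, against 0.723 for the response of NCI-H358 and 0.823 for that of HCC827. The first HCC827 parental array stood furthest from its group, with 81 and 105 genes more than 1 log2 unit away from the other two, which differed from each other by that much in 5 genes. Without that parental array, 1060 genes had a higher and 1132 a lower response in NCI-H358, against 1081 and 1096 with it. The third HCC827 mesenchymal array came next in distance from its group, with 51 and 64 such genes against 4 between the other two. Without that mesenchymal array the counts were 1124 and 1079. All 8 lung epithelial cancer markers lay above the median gene in parental HCC827 and 7 of 8 in parental NCI-H358. Of 23 markers of other cell types, 2 did so in the parental cells of either line. In mesenchymal cells these numbers were 6 in NCI-H358 and 5 in HCC827, the called risers among them being 5 and 4 genes. The summed log2 level of these 23 markers ran from 120.7 to 123.1 and from 133.4 to 136.4 in parental and mesenchymal NCI-H358 arrays, and from 114.6 to 116.5 and from 136.6 to 139.4 in those of HCC827. Its part in the results was not tested. That list holds matrix genes such as COL3A1 and LUM that the transition itself is known to turn on.

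In NCI-H358, 786 genes rose (3.96% of those tested) and 1076 fell (5.42%), 1862 in all (9.38%). In HCC827, 971 rose (4.89%) and 1307 fell (6.58%), 2278 in all (11.5%). Across genes the responses correlated with r = 0.54 and rho = 0.39 over 19849 genes, which are not independent replicates. The same measure was 0.28 between NCI-H358 and A549 and 0.38 between HCC827 and A549. The response difference was called for 2177 genes (11%), 1081 of them higher in NCI-H358 (5.45%) and 1096 lower (5.52%), and its median over all genes was 0.01.

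**Figure D1:**
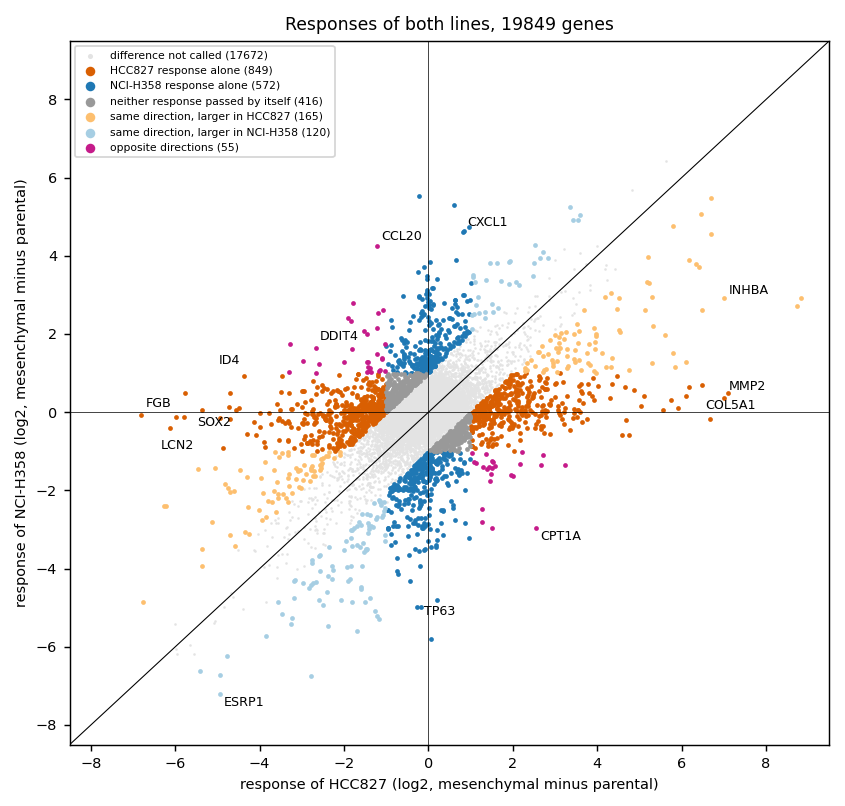
Response of HCC827 (x axis) against response of NCI-H358 (y axis), both as log2 mesenchymal minus parental, 1 point per gene and the diagonal marking equal responses. Most genes called different lie along an axis, where the response of a single line was called. The 55 genes in pink lie in the quadrants where the lines moved in opposite directions.

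A core of the transition was shared. Of the 957 genes called in both responses, 902 moved the same way, 343 up and 559 down. For 461 of these 902 (51.1%) the 95% interval of the response difference lay within 1 log2 unit of 0. The strongest of these shared falls were in epithelial genes. AGR2, a disulfide isomerase of secretory epithelium, fell by 6.05 in NCI-H358 and by 5.97 in HCC827, with a response difference of -0.07 (95% interval -0.86 to 0.72). RAB25, a recycling GTPase of epithelial cells, fell by 6.17 and by 5.56, and the ETS factor EHF fell by 5.39 and by 5.09. MPZL2 and ERP27 complete the 5 leading falls. The 5 leading shared rises were SCG5, TAGLN, LOXL1, ZEB1 and EPYC. TAGLN, the smooth muscle protein transgelin, rose by 3.76 and 4.21, and LOXL1, a collagen and elastin crosslinking enzyme, rose by 3.80 and 3.74.

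The EMT genes that the study followed by immunoblot moved alike in direction. ZEB1, the repressor of CDH1, was at 5.84, 6.43 and 6.14 in parental NCI-H358 and at 9.80, 9.89 and 9.70 in its mesenchymal cells, against 5.83, 6.15 and 6.07 and then 10.23, 10.19 and 10.19 in HCC827. The mesenchymal arrays lay above all parental arrays in both lines, and the response difference of -0.52 was not called (adjusted p = 0.0414, size under 1). CDH1 (E-cadherin) fell by 3.94 in NCI-H358 and by 2.95 in HCC827. Its response difference of -0.99 (SE 0.18, adjusted p = 0.000865) sat at the size threshold and was called in 7 of 17 alternative settings. CDH2 (N-cadherin) started from different levels, a mean of 9.30 in parental NCI-H358 and 4.94 in parental HCC827, and rose by 2.04 and 3.26, a called difference of -1.23 (adjusted p = 9.04e-07). VIM rose by 2.31 and 2.03 and SNAI1 had responses of 0.92 and 0.85, under the size threshold. Their response differences, 0.28 (95% interval -0.18 to 0.74) and 0.06 (95% interval -0.25 to 0.38), were not called. The probe set kept for VIM reads low, under the median gene in all 4 groups.

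The 2177 genes that parted did so in several ways. The response was called in HCC827 alone for 849 of them, 401 rising and 448 falling. It was called in NCI-H358 alone for 572, with 259 rising and 313 falling. The other line could still move by less than the size threshold, as ID4 did in NCI-H358 (response 0.93, limma adjusted p = 0.000162). In 285 genes both lines moved the same way but by unequal amounts, 165 more in HCC827 and 120 more in NCI-H358. In 55 they moved in opposite directions, which is 0.277% of all genes. The other 416 were called in neither response by itself. The response difference was over 2 in size for 613 genes and over 4 for 60.

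Of the 10 largest differences with a lower response in NCI-H358, 9 were genes that rose in HCC827, and 4 of them are of the matrix and protease lists. COL5A1, a chain of the type V collagen that nucleates fibrils, was at 5.68, 5.82 and 6.07 in parental HCC827 and at 12.51, 12.39 and 12.68 in its mesenchymal cells. In NCI-H358 it was at 5.11, 4.59 and 4.77 before and at 4.51, 4.78 and 4.66 after. The NCI-H358 groups overlapped and the HCC827 groups did not, a response difference of -6.84 (SE 0.19, adjusted p = 2.29e-10). MMP2, the gelatinase A that cuts basement membrane collagen, rose by 7.01 in HCC827 to 12.48, 12.15 and 12.51, while its arrays in mesenchymal NCI-H358 were at 6.22, 5.56 and 5.87, a response of 0.36. COL3A1, the type III collagen chain of loose connective tissue, rose in both lines, but by 2.73 in NCI-H358 and 8.74 in HCC827. The hyaluronan-binding protein gene TNFAIP6 rose by 6.11 in HCC827, with a response of 0.41 in NCI-H358. PLPP4, a lipid phosphatase, rose by 7.10 in HCC827 against a response of 0.50, and KANK4, of a family of adhesion scaffold proteins, rose by 8.83 against 2.92. CACHD1, LPCAT2 and the endothelin receptor gene EDNRA also rose in HCC827, by 5.91, 6.48 and 6.18. ADIRF was the exception among these 10: it fell by 5.80 in NCI-H358 and was low in HCC827 both before and after.

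Of the 10 largest differences with a higher response in NCI-H358, 9 were genes that fell in HCC827. FGB, the fibrinogen beta chain, was at 11.24, 11.08 and 10.82 in parental HCC827 and at 4.27, 4.28 and 4.17 in mesenchymal HCC827, and it lay between 3.68 and 4.18 in all 6 NCI-H358 arrays. Its response difference of 6.74 (SE 0.18, adjusted p = 1.27e-10) came with no called change in NCI-H358. Similar in form were FGG, the fibrinogen gamma chain, LCN2, an iron-trapping lipocalin, SFTA2, a surfactant-associated protein, PDZK1IP1 and the long noncoding RNA UCA1. Their falls in HCC827 were of 4.70 to 6.13 on the log2 scale, and FGG ended 1.06 below its level in mesenchymal NCI-H358. SOX2, a transcription factor of airway basal and squamous cells, differed from these, because both parental lines had it. It was at 10.92, 10.87 and 11.16 in parental NCI-H358 and at 10.86, 10.89 and 10.86 after TGFβ, but in HCC827 it went from 11.25, 9.80 and 9.91 to 4.14, 4.40 and 5.07. ID4 behaved like SOX2 and is described with its family. CCL20, a chemokine gene, also rose in NCI-H358 and is described with the opposite responses. F2RL2, the thrombin receptor PAR3, was a rise of NCI-H358 without a called change in HCC827. It rose by 5.54 in NCI-H358 from 3.40, 3.98 and 3.43, and lay between 2.76 and 3.62 in every HCC827 array.

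The 55 genes with opposite responses were 31 that rose in NCI-H358 and fell in HCC827 and 24 that did the reverse. Leading genes of each kind are given here. CCL20, the ligand of CCR6, was at 4.03, 4.30 and 4.24 in parental NCI-H358 and at 8.49, 8.27 and 8.55 after TGFβ, while in HCC827 it went from 5.22, 4.90 and 5.60 to 3.94, 3.91 and 4.25. The groups did not overlap in either line, with responses of 4.25 and -1.21 and a difference of 5.46 (adjusted p = 3.99e-09). FLRT3, a leucine-rich cell surface protein that binds FGF receptors, went from 5.92, 6.02 and 5.79 to 7.60, 7.70 and 7.64 in NCI-H358 and from 9.60, 9.20 and 9.05 to 5.95, 5.96 and 6.10 in HCC827. Before TGFβ the higher line was HCC827 and afterwards NCI-H358. RIMS2, TRNP1, DDIT4 and GNAS followed, with differences from 4.30 to 4.60. RIMS2 was the least even of these, its parental HCC827 arrays being at 3.89, 5.74 and 5.62. GNAS was read by a probe set whose HCC827 arrays lay at or below 5.84 before and at or below 3.95 after, so its fall there is near the low end of the scale.

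CPT1A, the carnitine palmitoyltransferase that admits long-chain fatty acids to mitochondrial oxidation, led the genes that fell in NCI-H358 and rose in HCC827. It was at 9.14, 9.14 and 9.26 in parental NCI-H358 and at 6.25, 6.30 and 6.09 in mesenchymal NCI-H358. In HCC827 it was at 6.31, 6.40 and 5.71 before and at 8.78, 8.76 and 8.55 after. The lines thus exchanged levels, with responses of -2.97 and 2.56 and a difference of -5.53 (SE 0.21, adjusted p = 2.1e-09), and CPT1A was the 1 gene whose opposite responses were both above 2 in size. IGFBP2, a carrier of insulin-like growth factors, fell by 2.95 in NCI-H358 and rose by 1.51 in HCC827. HERC5, the ligase that attaches the ubiquitin-like ISG15, fell by 2.82 and rose by 1.26. TREM1, a receptor best known from phagocytes, and the noncoding FUT8-AS1 fell by 1.34 and 1.35 and rose by 3.23 and 2.68.

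**Figure D2:**
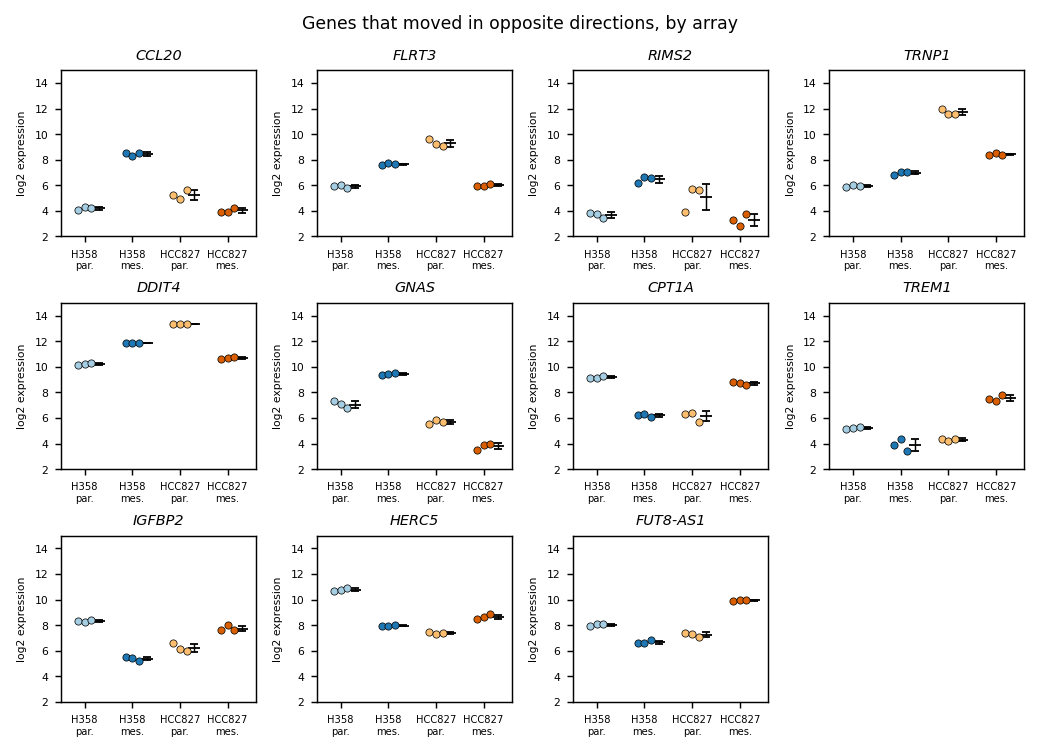
Log2 expression of these 11 genes on each of the 12 arrays, 1 point per array, with a bar at the mean and whiskers of 1 SD (n = 3). In each panel the step from parental (par.) to mesenchymal (mes.) cells goes up in one line and down in the other, and in CPT1A each mesenchymal line ends near the parental level of the other.

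Gene lists show which functions these differences fell in. Each list is described by its counts and its median response difference, beside 11% called and a median of 0.01 over all genes, and no list was tested.

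Among the TGFβ, activin and BMP genes, 10 of 57 had a higher and 11 a lower response in NCI-H358, with a median of -0.03. The 10 included all 4 ID genes, the BMP targets that encode dominant-negative partners of basic helix-loop-helix factors. ID1 was at 12.56, 12.64 and 12.73 in parental NCI-H358 and at 12.03, 12.03 and 12.11 after TGFβ, but fell from 13.04, 12.77 and 12.71 to 8.94, 8.77 and 8.53 in HCC827. ID3 rose by 1.32 in NCI-H358 and fell by 2.98 in HCC827, and ID2 rose by 1.02 and fell by 1.45. ID4 fell by 4.37 in HCC827, from 10.04, 9.46 and 9.39 to 5.30, 5.09 and 5.41, with a response of 0.93 in NCI-H358. The ID levels of the parental lines lay within 0.55 of each other for ID1, ID3 and ID4, and the mesenchymal lines lay 3.31, 3.75 and 5.56 apart. SMAD9 and SMAD1, which carry BMP signals, had differences of 2.59 and 1.07 in the same direction, as did the inhibitory SMAD6 at 1.06.

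The ligands of the family went their own ways. INHBA, the activin A subunit, rose in both lines, by 2.93 in NCI-H358 to 8.61, 8.70 and 8.68 and by 7.01 in HCC827 to 11.92, 11.88 and 12.07. INHBB, the activin B subunit, fell by 5.29 in NCI-H358 from 10.74, 10.72 and 10.66 and by 1.17 in HCC827 from 7.27, 7.31 and 7.19. TGFB2 rose by 2.76 in NCI-H358, against a response of 0.64 in HCC827. The receptor TGFBR1 rose by 2.07 in HCC827, against 0.59, and the TGFβ target PMEPA1 rose by 2.92 in NCI-H358 and by 4.52 in HCC827. SMAD3 fell by 2.25 in NCI-H358, with a response of -0.20 in HCC827.

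Matrix genes were often called in both directions. Of 42 collagens and collagen-modifying enzymes, 6 had a higher and 13 a lower response in NCI-H358, with a median of -0.55. Besides COL5A1 and COL3A1, the lower ones included COL15A1, COL4A1, COL6A1 and COL7A1, with differences of -3.66, -3.06, -2.51 and -2.16. The higher ones included COL4A6, a basement membrane chain, at 3.39, and the crosslinking enzymes LOXL4 and LOX at 1.78 and 1.12. COL4A6 read low, with means under 6 in every group. COL5A2 rose by 2.21 in NCI-H358 and had a response of 0.64 in HCC827. Within a line, 19 of the 42 rose and 1 fell in NCI-H358, and 24 rose and 4 fell in HCC827, with median responses of 0.87 and 1.40. Of 56 matrix glycoproteins and laminins, 8 were higher and 17 lower (median -0.18). The nidogens NID1 and NID2, which link laminin to collagen IV, rose by 3.45 and 3.63 in HCC827, with responses of -0.01 and -0.25 in NCI-H358. IGFBP3, an insulin-like growth factor carrier, fell by 1.44 and 5.05. POSTN (periostin) rose by 3.18 in NCI-H358, with a response of 0.09 in HCC827. Of 56 proteases and their inhibitors, 8 were higher and 16 lower (median -0.14). MMP1, ADAM19, ADAM12 and TIMP3 rose more in HCC827, with differences of -4.02, -4.70, -3.36 and -3.14, and TMPRSS4, a membrane serine protease, fell by 5.10 in NCI-H358 and 1.26 in HCC827. CST6, a cystatin, fell by 3.74 in HCC827 with a response of -0.31 in NCI-H358. TFPI2, an inhibitor of matrix-degrading serine proteases, rose by 2.45 in NCI-H358 with a response of -0.37 in HCC827.

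Of 25 EMT transcription factors and mesenchymal splicing factors, 0 had a higher and 7 a lower response in NCI-H358 by limma (median -0.21). At an unadjusted p below 0.05, 1 was higher, and 0 were called higher without moderation of the variance. ZEB2 rose by 2.20 in NCI-H358, to 5.49, 5.37 and 5.67, and by 5.32 in HCC827, to 7.97, 8.14 and 8.03. TBX3, SOX9 and RUNX2 rose by 3.52, 2.63 and 2.43 in HCC827, with responses of -0.13, -0.10 and 0.66 in NCI-H358. FOXC1 fell by 3.13 in NCI-H358 from a mean of 11.2, to about the level HCC827 had throughout. Of 44 mesenchymal cytoskeleton and adhesion genes, 2 were higher and 9 lower (median -0.26), with CDH13, ITGA2, PDLIM7 and TPM1 among the lower at -2.58, -2.29, -1.72 and -1.68. The means of CDH13 were under 6 in every group. The higher were FBLIM1, which rose by 1.18 in NCI-H358 with a response of -0.87 in HCC827, and the integrin chain gene ITGB8, which fell by 1.84 in HCC827.

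On the epithelial side several regulators fell by more in NCI-H358, some of them from a higher parental level. Of 27 epithelial transcription and splicing factors, 1 was higher and 6 lower in response, with a median of -0.07. TP63, the p63 factor of basal epithelium, was at 10.00, 9.90 and 10.15 in parental NCI-H358 and at 4.98, 5.12 and 5.01 afterwards, while in HCC827 it stayed between 5.41 and 6.02. FOXA2, a lung endoderm factor, fell by 4.86 in NCI-H358, from a mean of 9.27 to 4.41. In HCC827 it fell by 1.81, from 5.79 to 3.98, so it started and ended lower there. PRDM1, a repressor of the zinc finger family, rose by 1.37 and 3.46. ESRP1, the epithelial splicing regulator, started from means of 12.06 and 12.19 and fell to 4.89, 4.92 and 4.77 in NCI-H358 but to 7.45, 6.96 and 7.32 in HCC827. Of 47 junction genes, 34 fell in NCI-H358 and 33 in HCC827, and 3 were higher and 7 lower in the comparison, with a median of 0.01. CEACAM1, an adhesion molecule, fell by 3.93 in NCI-H358 and by 1.84 in HCC827. DSC2 and DSC3, the desmocollins, split, DSC2 rising by 1.57 in NCI-H358 and DSC3 rising by 2.37 in HCC827. Of 17 keratins, 1 was higher and 2 lower, with a median of 0.17, KRT19 falling by 4.87 and 3.57, KRT14 rising by 2.13 in HCC827 and KRT20 falling by 2.44 there. KRT14 and KRT20 read low, with means under 6 in every group. Of 51 lung and secretory genes, 10 were higher and 7 lower (median 0.07). NAPSA, MUC1 and PIGR fell by 4.71, 5.47 and 3.23 in HCC827, and of these MUC1 also fell in NCI-H358, by 1.46, whereas HOPX and S100P fell more in NCI-H358, by 5.22 and 6.75.

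Proliferation genes were the list with the lowest median. Of 49, 1 had a higher and 18 a lower response in NCI-H358, with a median of -0.69. The median responses were -0.38 in NCI-H358 and 0.46 in HCC827. These RNA levels do not measure growth, and the paper reports slower growth of its TGFβ-treated lines than of the parental cells. CDKN2C, which encodes an inhibitor of cyclin-dependent kinases, rose from 8.50, 8.19 and 8.22 to 10.59, 10.65 and 10.52 in HCC827 and was at 9.06, 8.99 and 9.09 and then 8.79, 8.88 and 8.72 in NCI-H358. The groups did not overlap in either line, and the step was up in HCC827 and down, by less than the size threshold, in NCI-H358. MCM5, a subunit of the replicative helicase, rose by 1.29 in HCC827 with a response of -0.21 in NCI-H358. MKI67, ASPM and CCNE2 had called differences of -1.15, -1.47 and -1.54. Most members moved by less than the size threshold within a line, so that 1 rose and 0 fell in NCI-H358 and 9 rose and 0 fell in HCC827 by limma, with 0 falling also without moderation. At an unadjusted p below 0.05 and of any size, 35 of the 49 were lower in mesenchymal than in parental NCI-H358, and 3 were lower in HCC827. The 9 were not all drivers of division: besides CDKN2C, CDKN1A, which encodes another inhibitor of these kinases, rose by 1.72.

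The interferon and antigen presentation list had the next lowest median, -0.59, with 5 of 57 higher and 18 lower. IFIH1, the viral RNA sensor MDA5, fell in NCI-H358 from 9.08, 9.06 and 9.32 to 5.51, 5.38 and 5.39, while in HCC827 it was at 8.77, 8.22 and 8.27 and then 7.60, 7.72 and 7.67. IFIT3 fell by 3.92 in NCI-H358 and by 1.57 in HCC827, GBP1 fell by 1.53 in NCI-H358 with a response of 0.68, and RIGI and ISG20 had differences of -2.03 and -1.65. In all, 25 members fell in NCI-H358 and 17 in HCC827. The proteasome and peptide transporter genes PSMB9, TAP1 and TAP2 had differences of -2.01, -1.28 and -1.49. Class II genes were mixed. HLA-DMA and HLA-DMB fell by 2.52 and 1.45 in HCC827, with responses of 0.70 and 0.12 in NCI-H358, and HLA-DRA had a called difference of 1.12. HLA-DQA1, with means under 6 in every group, rose by 2.27 in HCC827, a difference of -2.27. The differences of CD74, CIITA, HLA-DPA1 and HLA-DPB1, at 0.34, 0.46, -0.03 and -0.05, were not called.

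Cytokine and chemokine genes were the list most often called, 30 of 57, 20 higher and 10 lower (median 0.16). CXCL1, a neutrophil chemokine, rose from 4.85, 4.50 and 4.85 to 9.26, 9.40 and 9.39 in NCI-H358. In HCC827 it started higher, at 8.50, 8.62 and 8.98, and was then at 9.56, 9.71 and 9.31. Mesenchymal NCI-H358 thus lay above parental HCC827 and overlapped mesenchymal HCC827. CCL2, a monocyte chemokine, rose by 3.55 in HCC827 to 7.83, 8.02 and 7.88 and lay between 3.88 and 4.44 in all NCI-H358 arrays. The complement genes CFB and CFI fell by 4.29 and 2.37 in HCC827. IL11 and the decoy receptor ACKR3 rose in both lines and more in HCC827, with differences of -2.12 and -2.54.

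**Figure D3:**
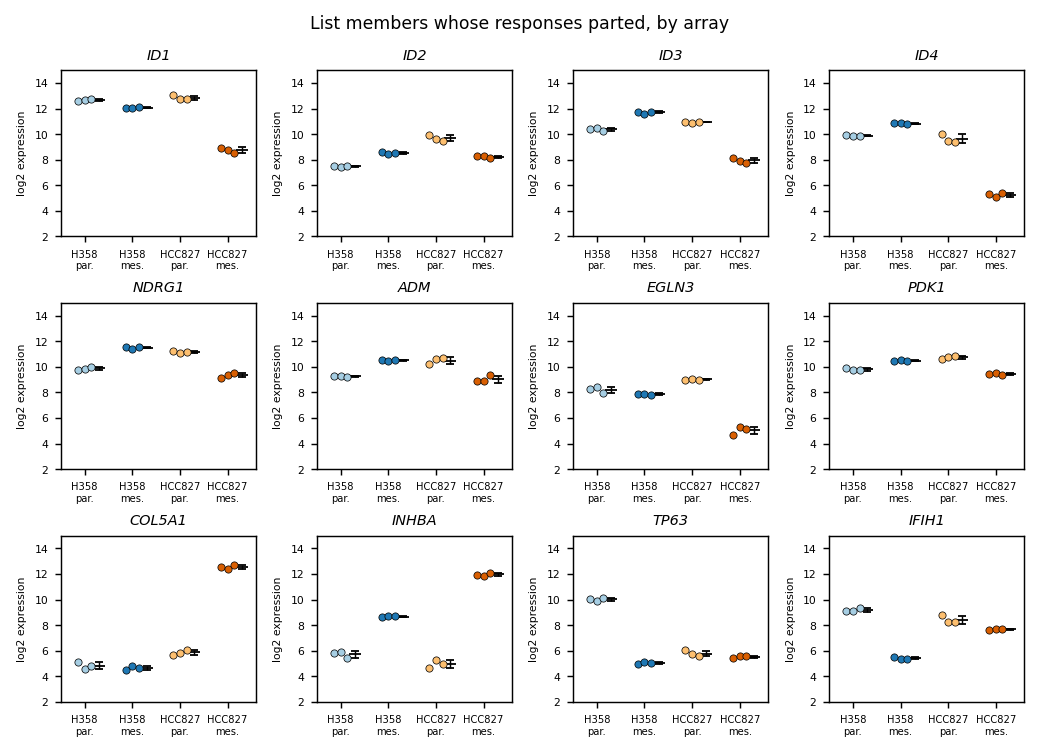
Log2 expression of 12 list members on each of the 12 arrays, 1 point per array, with a bar at the mean and whiskers of 1 SD (n = 3). The top row holds the ID genes and the middle row genes of glucose and oxygen metabolism, where the mean of mesenchymal HCC827 is the lowest in 7 of the 8 panels (all but ID2), and the bottom row holds 4 genes of other lists.

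Metabolism was a subject of the study. Of 47 glycolysis and hypoxia-regulated genes, 13 had a higher and 4 a lower response in NCI-H358, with a median of 0.31. DDIT4, which encodes the mTORC1 inhibitor REDD1, rose from 10.17, 10.25 and 10.29 to 11.85, 11.87 and 11.90 in NCI-H358 and fell from 13.34, 13.36 and 13.37 to 10.60, 10.71 and 10.75 in HCC827, a difference of 4.31 (SE 0.09, adjusted p = 2.27e-11). NDRG1 rose by 1.62 and fell by 1.82, and ADM, the vasodilator peptide adrenomedullin, rose by 1.27 and fell by 1.47. In all 3 genes parental HCC827 was above parental NCI-H358, and mesenchymal HCC827 was below mesenchymal NCI-H358. EGLN3, an oxygen-sensing prolyl hydroxylase, fell by 4.00 in HCC827 with a response of -0.37 in NCI-H358. BNIP3, PFKFB3, PFKFB4, HK2 and the lactate carrier SLC16A1 had differences of 1.73, 2.68, 1.34, 1.58 and 2.70. The 4 lower ones were EPAS1, which encodes the hypoxia-inducible factor HIF-2α and fell by 4.46 in NCI-H358 and 1.60 in HCC827, together with ANGPTL4, FBP1 and ARNT2.

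The promoter windows of the 13 genes with a higher response were read for ACGTG, the core of the hypoxia response element, on both strands. The windows are the 300 bases from 250 before to 50 after the start of each gene in RefSeq on GRCh38.p14, and 10 of the 13 had one. The core was present in 5 of the 10, namely BNIP3, DDIT4, EGLN1, HK2 and PPFIA4, against 24.4% of the windows of all measured genes that had one and 21.6% of all windows in the table. These genes come from a list chosen for glycolysis and hypoxia regulation, and the windows of its other members were not compared. The share therefore cannot be tied to the response difference. The core is also part of the E-box CACGTG, so a match does not tell which factor binds. The windows of DDIT4 (chr10:72273674-72273973, plus strand), BNIP3 (chr10:131981874-131982173, minus strand) and ADM (chr11:10304823-10305122, plus strand) are shown to compare a window with 1 core, one with a core on each strand that overlap in CACGTG, and one without it. Capitals mark the core.
DDIT4: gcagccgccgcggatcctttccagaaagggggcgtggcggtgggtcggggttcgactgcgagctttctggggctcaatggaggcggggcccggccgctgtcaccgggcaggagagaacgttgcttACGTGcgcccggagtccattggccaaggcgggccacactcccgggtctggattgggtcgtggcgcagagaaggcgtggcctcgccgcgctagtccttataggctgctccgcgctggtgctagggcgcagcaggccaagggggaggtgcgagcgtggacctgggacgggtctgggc
BNIP3: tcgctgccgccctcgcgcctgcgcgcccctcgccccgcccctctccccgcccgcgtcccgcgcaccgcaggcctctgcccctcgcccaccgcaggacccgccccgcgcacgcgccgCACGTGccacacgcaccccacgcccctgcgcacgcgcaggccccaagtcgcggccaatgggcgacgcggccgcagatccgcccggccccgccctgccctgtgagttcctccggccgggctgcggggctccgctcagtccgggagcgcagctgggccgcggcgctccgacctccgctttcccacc
ADM: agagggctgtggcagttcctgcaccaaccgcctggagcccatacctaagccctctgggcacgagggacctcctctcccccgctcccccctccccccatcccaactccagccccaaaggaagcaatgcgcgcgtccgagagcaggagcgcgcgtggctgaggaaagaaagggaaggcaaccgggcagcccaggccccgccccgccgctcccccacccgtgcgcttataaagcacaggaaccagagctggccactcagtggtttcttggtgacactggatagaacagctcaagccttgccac

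No match in ADM says only that these letters are not in this window. Over all genes with a higher response the core was in 25.4% of 815 windows, and over those with a lower response in 19.1% of 834. The E-box CACCTG bound by ZEB factors was in 20.2% and 17.9% of these windows, against 19.6% of those of all measured genes. The TEAD motif GGAATG was in 12.9% of both sets and 11.7% of all, and the AP-1 motif TGANTCA in 6.63% and 5.88% and in 5.62% of all. These shares are a description without a test.

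Of 40 genes of the pyruvate dehydrogenase complex, its kinases and phosphatases and the TCA cycle, 5 had a higher and 0 a lower response by limma, with a median of 0.27. At an unadjusted p below 0.05 and of any size, 6 were lower, and 0 were called lower without moderation. PDK4, the kinase at the centre of the study, fell in both lines. It was at 6.94, 7.41 and 7.62 in parental NCI-H358 and at 4.35, 4.07 and 4.38 afterwards, and at 8.39, 7.79 and 7.40 and then 3.59, 3.58 and 3.34 in HCC827. No mesenchymal array reached a parental one, and the fall was larger in HCC827 by 1.30 (SE 0.31, adjusted p = 0.00574). PDK1, the kinase induced by HIF-1, was at 9.91, 9.78 and 9.72 and then 10.46, 10.52 and 10.42 in NCI-H358, and at 10.60, 10.78 and 10.85 and then 9.44, 9.55 and 9.36 in HCC827. The groups did not overlap in either line, with a fall of 1.30 in HCC827, a response of 0.66 under the size threshold in NCI-H358, and a called difference of 1.96 (SE 0.12, adjusted p = 9.9e-08). PDK3 had responses of -1.47 and -0.48 and a difference of -0.99 that was called in 6 of 17 alternative settings. PDK2 had a difference of 0.24 (95% interval 0.00 to 0.48, adjusted p = 0.115), and AIFM1, a mitochondrial flavoprotein, one of 0.47, under the size threshold. ACLY, which makes cytosolic acetyl-CoA, rose by 1.64 in NCI-H358 with a response of 0.21 in HCC827. DLD and MPC2 had differences of 1.04 and 1.05, and each fell below the size threshold in some of the alternative settings.

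Sterol and fatty acid synthesis had the highest median of the lists, 0.55, with 7 of 37 higher and 1 lower. ACSL5 and LPIN1, of fatty acid activation and lipid synthesis, fell by 1.60 and 1.13 in HCC827, with responses of 0.33 and 0.17. ABCA1, the cholesterol exporter, rose by 1.26 in NCI-H358 with a response of -0.17 in HCC827. The lower one was ACSL1, another acyl-CoA synthetase, which fell by 1.93 in NCI-H358. INSIG1, HMGCS1 and FDFT1, of sterol synthesis and its control, had differences of 1.25, 1.15 and 1.21. FBP1, the gluconeogenic fructose bisphosphatase, fell by 2.34 in NCI-H358 from 7.41, 7.34 and 7.40, with a response of -0.57 in HCC827, where it started lower, at 6.24, 5.43 and 5.51. Of 55 genes of glutamine, serine and amino acid metabolism, 5 were higher and 6 lower (median 0.10). SLC1A1, a glutamate carrier, fell by 4.81 in NCI-H358 and had a response of 0.21 in HCC827, and GLUL, glutamine synthetase, fell by 2.28 against a response of 0.55. IDO1, which degrades tryptophan, fell by 3.12 in NCI-H358, and SLC1A4, a neutral amino acid carrier, rose by 1.98 in HCC827, with responses in the other line of -0.27 and -0.29. ASS1, argininosuccinate synthase, fell by 2.93 in HCC827, with a response of 0.27 in NCI-H358.

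EGFR, the mutated driver of HCC827, was at 7.61, 7.84 and 7.79 in parental NCI-H358 and at 12.82, 12.59 and 12.65 in parental HCC827, and its response difference of 0.20 (95% interval -0.06 to 0.46) was not called. Of 19 ERBB receptors, ligands and regulators, 3 were higher and 3 lower, with a median of 0.01. EGF rose by 2.74 in HCC827 with a response of -0.52 in NCI-H358, NRG1 fell by 2.45 in HCC827 with a response of -0.15, and EREG fell in both, by 5.72 in NCI-H358 and 3.85 in HCC827. BTC, another ligand, fell by 2.67 and 3.85, and LRIG1, which promotes turnover of the receptors, had responses of -0.34 and 0.77. The means of LRIG1 were under 6 in every group. Of 43 MAPK output genes, 6 were higher and 8 lower (median -0.27). DUSP6, the ERK phosphatase and feedback gene, fell by 2.91 in NCI-H358 with a response of -0.76 in HCC827, and EGR1 fell by 2.62 in HCC827 with a response of -0.05 in NCI-H358. EPHA4 rose by 4.58 in HCC827 against -0.58, and CCND1 (cyclin D1) by 1.53 against -0.20. DUSP5, another ERK phosphatase, fell by 1.66 in NCI-H358 against 0.03 in HCC827.

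Of 53 other receptor tyrosine kinases and ligands, 14 were higher and 7 lower (median 0.07). EPHA3 and EPHA5 rose by 2.34 and 3.11 in NCI-H358, with responses of 0.00 and -0.04 in HCC827, whose EPHA3 arrays were all at or below 2.55. HGF, the ligand of MET, fell by 3.52 in HCC827 with a response of 0.06, and FGFBP1, a carrier of FGFs, fell by 4.94 in NCI-H358 and 2.49 in HCC827. FGFR3 rose by 1.29 in NCI-H358 and fell by 2.01 in HCC827, MET fell by 2.00 in HCC827 with a response of -0.03, and AXL had responses of 0.85 and -0.71, under the size threshold, and a called difference of 1.56. Of 61 WNT, Notch and YAP genes, 5 were higher and 14 lower (median -0.05). WNT5A and WNT5B rose in both lines and by 3.88 and 2.52 less in NCI-H358, the Notch ligand JAG1 rose by 3.63 in HCC827 with a response of 0.50, and the TEAD cofactor VGLL3 rose by 1.21 and 3.82. LEF1, the WNT-regulated factor, rose by 2.75 in NCI-H358, with a response of 0.01. Of 34 HOX genes, 6 were higher and 1 lower (median 0.17), led by HOXA10, which fell by 2.78 in HCC827 and lay at or below 3.89 in all NCI-H358 arrays. HOXB6, HOXB8, HOXC10 and HOXA13 also fell in HCC827, by 1.93, 1.77, 1.47 and 1.32, HOXA13 with means under 6 in every group. Of 42 guidance genes, 5 were higher and 4 lower (median 0.05), with PLXNC1 rising by 3.47 and 1.04 NTNG1 rising by 2.37 and SEMA5A by 1.40 in NCI-H358, and NRP2 rising by 1.89 in HCC827, against -0.16. PLXNA1 had responses of -0.78 and 0.55 and a called difference of -1.33.

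**Figure D4:**
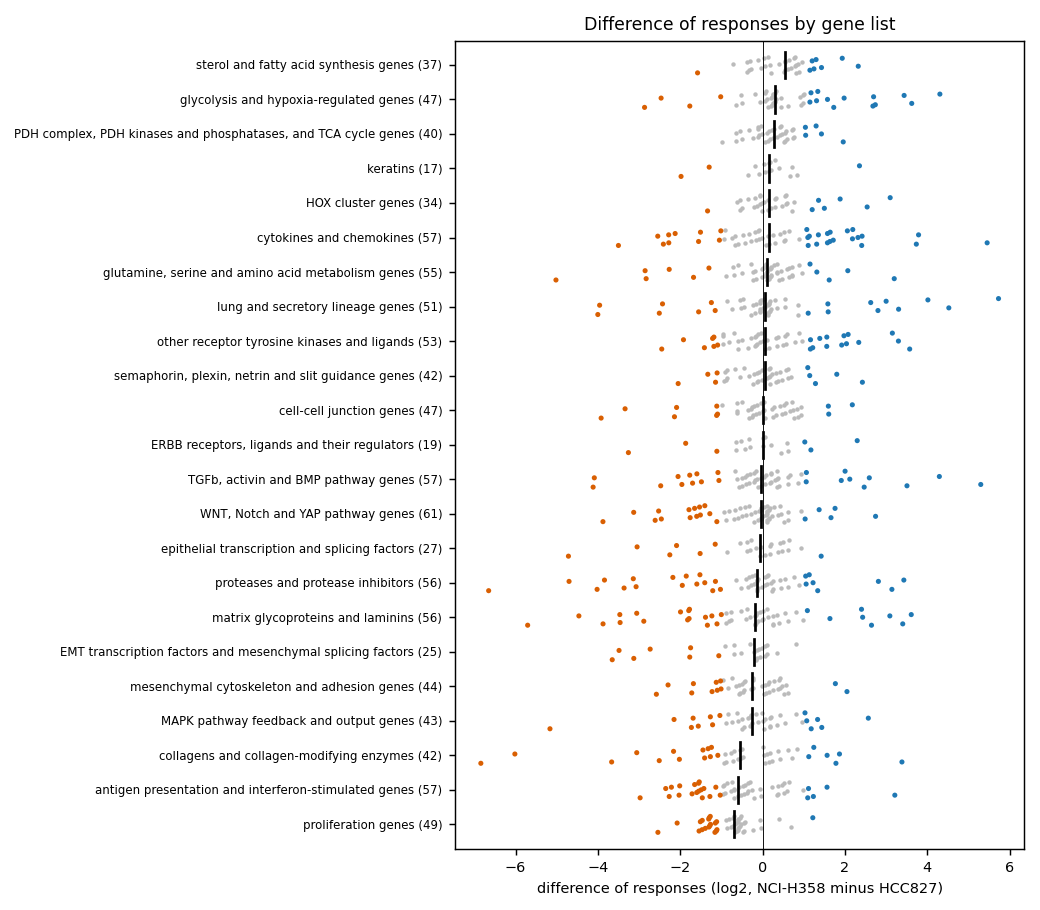
Response difference (log2, NCI-H358 minus HCC827) of each measured gene of the 23 lists, ordered by the list median (black bar), with called genes in blue (higher in NCI-H358) or orange (lower) and the others in grey. List medians run from -0.69 for proliferation genes to 0.55 for sterol and fatty acid synthesis, and most lists hold called genes of both signs.

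The response difference of a gene equals the difference between the mesenchymal lines minus that between the parental lines, so the same arrays enter both. The parental lines differed in 3016 genes (15.2%), 1445 higher in NCI-H358 (7.28%) and 1571 higher in HCC827 (7.91%). The mesenchymal lines differed in 3024 genes (15.2%). Over all genes the lines were therefore called different about as often after the transition as before it. Of the 2177 genes with different responses, 669 (30.7%) differed in parental cells alone, 717 (32.9%) in mesenchymal cells alone, 361 (16.6%) in both with the same sign, 75 (3.45%) in both with opposite signs and 355 (16.3%) in neither. In 1046 (48.0%) the lines lay closer in the mesenchymal state, and in the others further apart.

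The share differed between falls and rises. Where a single line had a called fall, the lines came closer in 65.0% of 448 genes for HCC827 and 62.9% of 313 for NCI-H358. Where a single line had a called rise, they came closer in 29.2% of 401 and 28.2% of 259. Since a parental array that reads high by error alone lowers the response, the shares were taken again with 1 parental array of each line held out to give the parental difference and the responses from the others. They were then 59.5% to 64.7% for falls and 26.7% to 30.2% for rises over the 3 choices of held-out arrays, and 46.9% to 48.1% for all genes that parted. Genes picked by a fall in a single line started higher there. Their median parental percentiles were 65.1 against 46.8 in the other line (HCC827) and 70.2 against 52.6 (NCI-H358). For rises they were 39.3 against 44.1 and 40.0 against 41.9. The shares thus follow in part from picking genes by fall or rise, which holding out arrays does not remove. No contrast between lost and gained genes can be read from them.

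The sign of the response difference was set against the held-out parental difference in the same way. Among the 1432 to 1521 genes more than 1 log2 unit higher in the held-out NCI-H358 array, the response in NCI-H358 was lower for 27.4% to 28.4% and higher for 6.49% to 7.17%. Among the 1478 to 1847 genes higher in the held-out HCC827 array, it was higher for 25.3% to 31.4% and lower for 5.95% to 6.28%. Among the rest it was higher for 2.98% to 3.34% and lower for 3.28% to 3.89%. Across all genes the response difference and the held-out parental difference correlated with r from -0.33 to -0.36 and rho from -0.24 to -0.29, as a description over genes that share arrays and depth of signal. The response difference subtracts the parental difference, and the parental and mesenchymal differences had SDs of 0.938 and 0.947 over all genes. A negative relation and this split of signs therefore follow from the definition. Holding out arrays removes shared array error but not this, so no dependence on the parental level can be read from these values.

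Named genes show these forms. Some genes were called different between the lines in parental cells and not in mesenchymal cells. The furthest apart of these in parental cells were, with HCC827 higher, FGB, LCN2, ALOX5, NAPSA and DSCAML1, all through a fall in HCC827 toward NCI-H358. A smaller difference could remain, as in FGB at -0.38 in mesenchymal cells (limma adjusted p = 0.0223). ALOX5, the leukotriene-forming lipoxygenase, went from 8.38, 7.98 and 7.58 to 3.21, 3.34 and 3.21, beside 2.56 to 2.94 in NCI-H358. With NCI-H358 higher they were ADAM19, S100P, CYP4X1, EDNRA and DOK7. CYP4X1, a cytochrome P450, and DOK7, an adaptor of the muscle kinase MuSK, converged by a fall in NCI-H358 of 4.99 and 3.53, and S100P fell in both lines. ADAM19, a metalloprotease, and EDNRA converged by a rise in HCC827: ADAM19 went from 4.37, 4.28 and 4.33 to 10.24, 10.13 and 10.18, beside 9.46, 9.38 and 9.60 and then 10.63, 10.53 and 10.74 in NCI-H358. Parental NCI-H358 lay above parental and below mesenchymal HCC827 in both genes.

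The genes not called different in parental cells and furthest apart afterwards were, with HCC827 higher, PLPP4, MMP2, COL3A1, TNFAIP6 and TMSB15A, all through a rise in HCC827. With NCI-H358 higher they were SOX2, F2RL2, ID4, MMP8 and FRAS1. F2RL2 and MMP8, a neutrophil-type collagenase, rose by 5.54 and 5.30 in NCI-H358. SOX2, ID4 and FRAS1, an extracellular protein of epithelial basement membranes, fell in HCC827 from levels at which both lines had started, FRAS1 going from 9.36, 8.94 and 8.94 to 3.82, 3.87 and 4.71 while the NCI-H358 arrays stayed between 8.84 and 9.17.

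**Figure D5:**
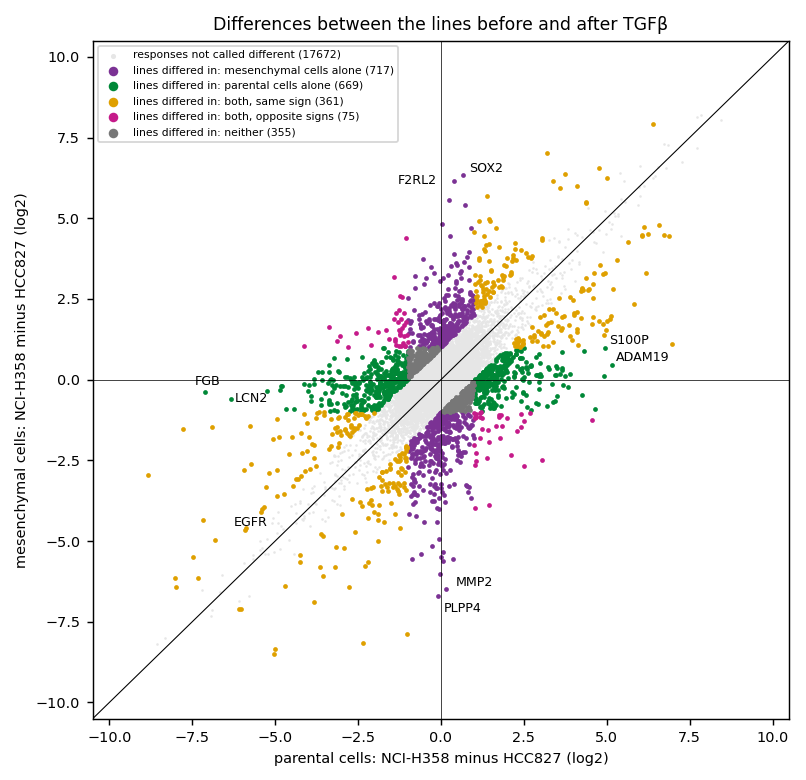
Difference between the lines (log2, NCI-H358 minus HCC827) in parental cells (x axis) against mesenchymal cells (y axis), 1 point per gene, with the diagonal marking equal responses. Green points (669 genes) lie along the horizontal axis, where the lines were called different in parental cells alone. Purple points (717 genes) lie along the vertical axis, where they were called different in mesenchymal cells alone, and EGFR stays near the diagonal.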

How the data were processed

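Gene expression was measured on arrays of parental and TGFβ-induced mesenchymal cells. The authors normalized the arrays by RMA, a tool their processing notes name without a version, and deposited log2 expression values for 19849 genes, 1 probe set each. How the probe set was chosen, the annotation and the genome build are not given in the sources used here. RMA shrinks differences near the low end of the scale, so steps from or to low levels are understated. Each column bore the title of 1 sample. RefSeq held 19326 of the gene IDs, 2479 symbols were updated, and 26 written as dates were named through their IDs.

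The 12 arrays of NCI-H358 and HCC827 were fitted with limma 3.58.1 in R 4.3.3 (lmFit, eBayes) with 4 groups and no covariate, and all other steps ran in Python 3.11.15. The fit was tested on simulated data. The 3 arrays per group limit the precision. Replicates were numbered in accession order.

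The comparison and the 23 gene lists were chosen with earlier results of these data known. The genes named were drawn, by rule, from the 10 of each sign with the largest response difference, the 6 of each sign called in opposite directions, the 5 of each direction with alike and largest responses, up to 5 called members of each list, genes the paper names, and the 5 of each sign furthest apart in parental or mesenchymal cells alone. Other list members named, and the genes under Other observations, were chosen after their values were seen. Alternatives were all 18 arrays, moderation with an intensity trend, no dim probe sets (mean under 6 in every group), an adjusted p below 0.01, a size above 2, median centring, no moderation, each array left out, held-out parental arrays and the methods' t-test within each line. Some genes that the rule names are not reported here. A549 was used for the correlations of responses and in the fit of all arrays.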

Additional observations from a re-analysis of the deposited data

Results flagged for a closer look

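Each gene called in the response difference is by construction a gene whose response differed between the lines by a test of the difference itself, so only the counts and the leading genes with opposite responses are set out. A higher response in NCI-H358 was called for 1081 genes, a lower one for 1096, and responses in opposite directions for 55. The response differences of the leading opposite genes, with both responses and the difference called by limma, were 5.46 for CCL20, 5.02 for FLRT3, 4.60 for RIMS2, 4.32 for TRNP1, 4.31 for DDIT4 and 4.30 for GNAS. They were -5.53 for CPT1A, -4.57 for TREM1, -4.46 for IGFBP2, -4.08 for HERC5 and -4.02 for FUT8-AS1. In RIMS2, 1 parental HCC827 array (3.89) lay near the mesenchymal HCC827 arrays (2.81 to 3.74), apart from the other two (5.74 and 5.62).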

How the results depend on the processing

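Counts stayed within 1.5 times their values, with all 18 arrays, moderation with an intensity trend, no dim probe sets, an adjusted p below 0.01, median centring, no moderation and, for the responses, the methods' t-test. A size above 2 moved them by its construction, to 279 genes with a higher and 334 with a lower response in NCI-H358, 226 up and 351 down in NCI-H358, 347 up and 414 down in HCC827, and 1 gene in opposite directions. With 1 array left out, the counts ran from 1060 to 1126 (higher response in NCI-H358), 1075 to 1134 (lower), 772 to 812 and 1050 to 1115 (up and down in NCI-H358), 952 to 993 and 1239 to 1375 (up and down in HCC827) and 51 to 56 (opposite), and the share of genes whose lines came closer from 47.4% to 48.7%. Of the 2177 genes, 1850 (85.0%) were called with the same sign in each of these fits, and of the 55 opposite ones, 40 (72.7%). Of 162 named genes, 4 changed their call (CDH1, PDK3, DLD and MPC2, all near the size threshold) in up to 17 settings that kept both thresholds. No gene that was called changed sign. The adjusted p below 0.01 and the size above 2 were not among these settings. Genes absent after the removal of dim probe sets were not counted as changed. These were CDH13, COL4A6, HLA-DQA1, HOXA13, KRT14, KRT20, LRIG1 and VIM, whose means were under 6 in every group. AGR2, MPZL2, LOXL1 and SNAI1, not called in the response difference, had values on both sides of 0. Median centring moved the median response of all genes to 0.05 in NCI-H358 and 0.07 in HCC827. Another background correction was not run, since only values after RMA were used. No paired analysis was possible because the replicate numbers are in accession order and pair no arrays.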

Other observations

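Among histone genes, which are in none of the lists, the called response differences ran 1 way. Of 56 genes of the H1, H2A, H2B, H3 and H4 clusters that the table names by these symbols, 22 had a higher response in NCI-H358 and 0 a lower one by limma, with a median of 0.70 against 0.01 over all genes. In NCI-H358, 19 rose and 0 fell, and in HCC827, 0 rose and 2 fell. Over all genes, 5.45% had a higher and 5.52% a lower response in NCI-H358. The shares that rose and fell were 3.96% and 5.42% in NCI-H358 and 4.89% and 6.58% in HCC827. At an unadjusted p below 0.05 and of any size, 3 had a lower response difference, 2 were lower in mesenchymal NCI-H358 and 5 were higher in mesenchymal HCC827, and without moderation these counts of calls were again 0. H2BC4 went from a mean of 7.40 to 9.74 in NCI-H358 and from 7.12 to 5.28 in HCC827, H2AC6 from 9.57 to 11.57 and from 10.08 to 8.62, H1-2 from 9.89 to 12.06 and from 9.11 to 8.26, and H4C8 from 5.94 to 8.97 and from 5.10 to 5.03. The group was chosen after its values were seen. Its members have closely similar sequences, so probe sets may read more than 1 of them. Over the same arrays the median difference of the proliferation genes was -0.69. Among the EGFR ligands, AREG, TGFA and HBEGF had response differences of -0.66, -0.65 and -0.43, under the size threshold, beside falls of 5.04 and 4.39 for AREG and of 4.23 and 3.58 for TGFA, and rises of 1.54 and 1.97 for HBEGF, in NCI-H358 and HCC827. The third fibrinogen chain gene, FGA, was low throughout, with group means from 4.46 to 5.45 and a response difference of 0.57. NKX2-1, the lung lineage factor, fell by 1.06 in NCI-H358 and had a response of 0.46 in HCC827, a called difference of -1.52. Of the other carnitine palmitoyltransferase genes, CPT2 had responses of -0.61 and -1.33 and CPT1C of -0.10 and 0.12, with response differences that were not called.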
